A study of Arabidopsis thaliana with 12 samples.

Results

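The genes of Polycomb repressive complex 1 (PRC1) and of its partner proteins were followed in mature leaves of Arabidopsis thaliana, by locus code: 10 genes of the 28775 in the deposited count table. They are LHP1 (also TFL2, AT5G17690), EMF1 (AT5G11530), RING1A (AT5G44280), RING1B (AT1G03770), BMI1A (AT2G30580), BMI1B (AT1G06770), BMI1C (AT3G23060), VRN1 (AT3G18990), VAL1 (AT2G30470) and VAL2 (AT4G32010). The rule itself uses locus codes and no measured value, but the genes were picked with earlier results of these data known. Polyadenylated RNA was sequenced from 4 genotypes with 3 libraries each. The trb45 clf29 plants carried mutations in TRB4, TRB5 and CLF, the trb45 plants (the line trb45-1) mutations in TRB4 and TRB5, and the clf29 plants the clf29 allele of CLF. The WT plants were Col-0. Seeds of all groups had 2 days in the dark at 4 °C, and plants then grew on soil at 23 °C with 16 h of light a day. The labels give no treatment, and leaves were taken at day 21. The labels do not say whether libraries of a group came from separate plants or pools, so p-values measure the spread between these libraries. Each mutant group is a single line, and other TRB lines of the study were not analysed here.

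Polycomb proteins keep developmental genes silent. Polycomb repressive complex 2 (PRC2), of which CLF is a histone methyltransferase, places trimethylation on lysine 27 of histone H3. PRC1 places monoubiquitin on histone H2A through its RING-finger proteins RING1 and BMI1. In plants LHP1 reads the PRC2 mark, EMF1 acts with both complexes, and VRN1 is a DNA-binding protein of the vernalization pathway. VAL1 and VAL2 are B3-domain proteins that bind the RY element and bring Polycomb proteins to seed maturation genes and to FLC. TRB proteins bind telobox motifs and are known to interact with PRC2.

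Total counts lay between 45519206 and 54215882 per library, and the shallowest was trb45 replicate 2. Of the low counts from 1 to 20, 79.4% were even numbers, so single counts may not be single reads. The mutated genes were low where their labels place a mutation. TRB5 averaged 1.33 ± 0.336 CPM (counts scaled to equal library totals after TMM correction of those totals) in trb45 clf29 and 3.17 ± 1.29 in trb45, against 17.4 ± 2.00 in clf29 and 17.2 ± 0.898 in WT (SD, n = 3 each, as for every ± in the text). TRB4 averaged 1.27 ± 0.0399 CPM in trb45 clf29 and 2.29 ± 0.859 in trb45, against 4.25 ± 0.319 in clf29 and 5.51 ± 0.645 in WT. CLF averaged 0.1499 ± 0.0481 CPM in trb45 clf29, 13.8 ± 1.24 in trb45, 0.0761 ± 0.116 in clf29 and 11.9 ± 0.842 in WT. The 5 leaf marker genes took at least 8.04% of every library. The 6 anther marker genes summed to 3.52 to 14.9 CPM in clf29, where all 6 had counts, and to at most 0.270 CPM in trb45 clf29, 0.393 in trb45 and 0.142 in WT. The 3 meristem markers summed to at most 0.399 CPM in trb45 clf29, 0.0437 in trb45 and 1.03 in clf29, and were at 0 in WT. In whole leaves, fewer cells of a type and less RNA per cell cannot be told apart.

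In leaves, 9 of the member genes were expressed, and all but RING1B differed little between genotypes. The highest group mean of RING1B, in trb45, was 2.01 times its lowest, in clf29, a pair of groups not compared here. For the other expressed members this ratio was at most 1.42. The filter on low counts left 9 of the 10 members among 19138 genes tested, and BMI1C had no count in any library. Per kilobase of exon, VAL1 stood highest in WT at 8.04 CPM, followed by VAL2 at 5.14, VRN1 at 4.97, LHP1 at 4.12 and EMF1 at 3.73. The RING-finger genes were lower in WT, with 2.12 CPM per kilobase for BMI1B, 2.03 for BMI1A, 1.40 for RING1A and 0.570 for RING1B. Over the 9 tested members and the 5 comparisons between genotypes there were 45 fold changes. Of these, 11 passed an edgeR adjusted p of 0.05, in 7 of the 9 members. Over all genes tested, 68.9% passed in at least 1 of the 5 comparisons. The largest of the 45 fold changes was 0.884 on the log2 scale, and none reached 1. Their standard errors ran from 0.0596 to 0.234.

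**Figure D1:**
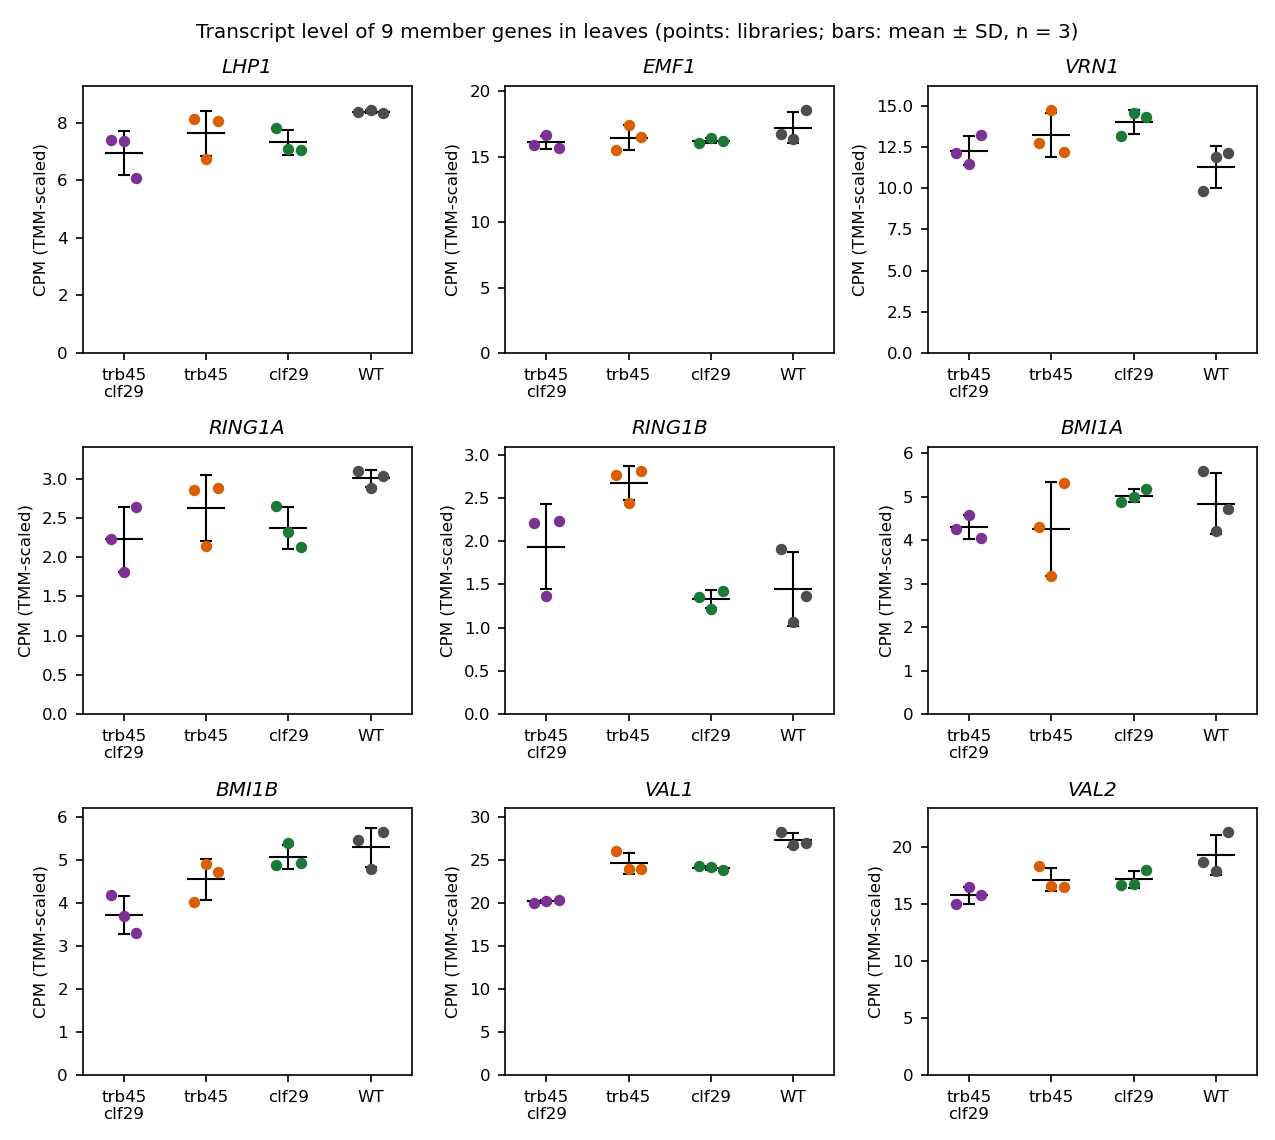
Level of the 9 expressed members in each library, in CPM on TMM-scaled library sizes (y axis, from 0), for trb45 clf29, trb45, clf29 and WT leaves (x axis). Points are libraries, and bars are the mean ± SD of 3 libraries. VAL1 lies at 19.99 to 20.4 CPM in trb45 clf29, against 26.8 to 28.3 in WT, and RING1B at 2.45 to 2.81 CPM in trb45, against 1.06 to 1.91 in WT.

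In trb45 clf29 against WT leaves, VAL1, VAL2, BMI1B, LHP1 and RING1A fell and no member rose. The call rate was 5 of 9, near the 48.5% of all genes tested that passed in this comparison. All 5 were lower, where 22.6% of all genes were called lower and 25.9% higher. The median log2 fold change of the 9 members was −0.27, and that of all genes was 0.02. The libraries of both groups did not overlap for the same 5 members, all of them lower in trb45 clf29; over all genes 57% did not overlap, with 26.9% lower and 30.1% higher. With an offset for GC content and exonic length, an alternative chosen after seeing the data, 2 members passed, BMI1B and VAL1. That fit called 9170 of 19138 genes. Without WT replicate 2, WT replicate 3 or clf29 replicate 3, 3 members passed. Those fits called 9134 of 19401, 7765 of 19399 and 9038 of 19367 genes, in that order.

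In trb45 against WT, RING1B rose and no other member passed. This is 1 of 9 members, beside 25.7% of all genes (14.5% higher, 11.2% lower). DESeq2 called 2 members and the offset fit 3, the others being VAL1 and, with the offset, VAL2, both lower in trb45. Of 19138 genes, DESeq2 called 5208 there and the offset fit 5194. The groups did not overlap for 5 members, of which RING1B and VRN1 were higher and LHP1, RING1A and VAL1 lower in trb45, beside 37.7% of all genes. In clf29 against WT, VRN1 rose and VAL1 fell, which is 2 of 9 members beside 34.7% of all genes (18.5% higher, 16.2% lower). The groups did not overlap for 4 members, with VRN1 higher and LHP1, RING1A and VAL1 lower in clf29, beside 50.8% of all genes. No member passed in clf29 against WT without WT replicate 1, clf29 replicate 2 or clf29 replicate 3, and 1 passed without clf29 replicate 1 or with the offset. Those fits called 4343 of 19387, 5035 of 19383, 4917 of 19367, 5152 of 19361 and 6471 of 19138 genes, in that order.

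Within the clf29 background, BMI1B and VAL1 fell in trb45 clf29 against clf29, 2 of 9 members beside 31.4% of all genes, with 14.2% lower. The libraries did not overlap for BMI1A, BMI1B, VAL1 and VAL2, all lower in trb45 clf29, beside 47.6% of all genes. The clf29 libraries held more anther marker RNA than those of trb45 clf29, and its part in these falls was not tested. Within the trb45 background, VAL1 fell in trb45 clf29 against trb45, 1 of 9 members beside 30.5% of all genes. The libraries did not overlap for RING1B, VAL1 and VAL2, all lower in trb45 clf29, beside 39.2% of all genes, with 18.8% lower. These comparisons share libraries, so their counts are not independent of each other.

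The interaction contrast, the trb45 effect in clf29 plants minus the trb45 effect in WT plants, passed for 0 of 9 members with edgeR, beside 7.47% of all genes (4.16% above 0, 3.31% below). DESeq2 also called 0, beside 1910 of 19138 genes, and 1 member, VRN1, had an unadjusted p under 0.05 with edgeR. Its interaction was −0.42 (edgeR adjusted p = 0.0858, SE 0.140). Scaled by library size alone, without TMM, VRN1 did pass, with −0.46 and an edgeR adjusted p of 0.0398.

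**Figure D2:**
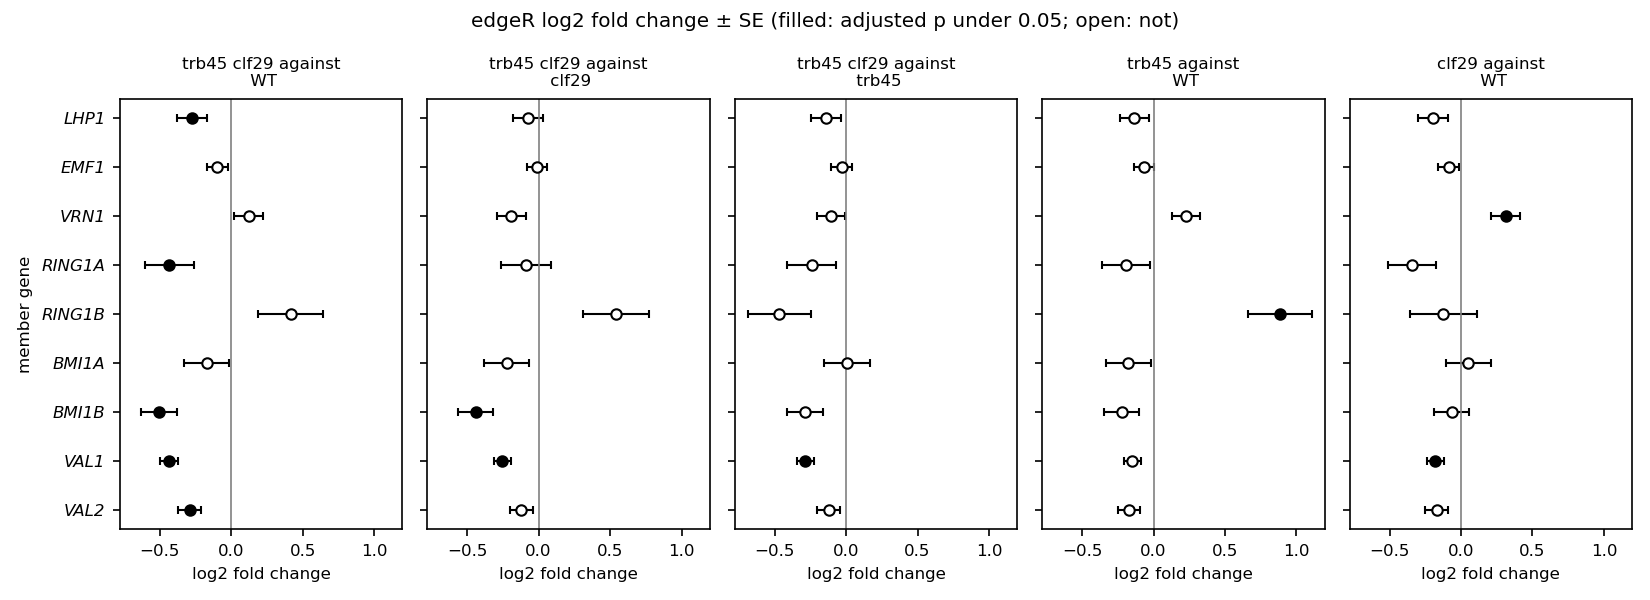
The edgeR log2 fold change ± SE (x axis) of each tested member (y axis) in the 5 comparisons. Filled points passed an adjusted p of 0.05 over all genes, and open points did not. All 5 filled points of trb45 clf29 against WT lie below 0, and the one filled point of trb45 against WT is RING1B at 0.88.

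LHP1, the reader of the PRC2 mark, lies on the minus strand at chr5:5827142-5829763 (TAIR10.1, as for all positions here). It had 7.41, 7.35 and 6.07 CPM in the trb45 clf29 libraries and 8.13, 6.73 and 8.05 in the trb45 libraries. It had 7.81, 7.07 and 7.05 CPM in clf29 and 8.39, 8.43 and 8.35 in WT. Every mutant library lay below the WT libraries, and the mutant groups overlapped each other. LHP1 fell in trb45 clf29 against WT, with a log2 fold change of −0.27 (edgeR adjusted p = 0.0413, SE 0.104). That call was lost in 7 of 21 other fits, among them those without WT replicate 1, 2 or 3, clf29 replicate 3 or the unnumbered trb45 clf29 library, with edgeR adjusted p of up to 0.235. Neither trb45 against WT (−0.13) nor clf29 against WT (−0.20) passed for LHP1.

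EMF1, a plant-specific partner of both complexes at chr5:3695792-3701549 on the plus strand, was the steadiest member. It averaged 16.1 ± 0.508 CPM in trb45 clf29, 16.5 ± 0.979 in trb45, 16.2 ± 0.194 in clf29 and 17.2 ± 1.16 in WT. All neighbouring groups in that order of levels overlapped. The highest group mean was 1.07 times the lowest, and no comparison passed. In trb45 clf29 against WT its log2 fold change was −0.10 (edgeR adjusted p = 0.277, SE 0.0721), with −0.22 by library size alone (edgeR adjusted p = 0.0258) and 0.18 with the offset for GC content and length, so its sign depends on the scaling.

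VRN1, the vernalization protein at chr3:6548127-6552055 on the minus strand, was lowest in WT. It had 12.1, 11.5 and 13.2 CPM in trb45 clf29 and 12.8, 14.7 and 12.2 in trb45. It had 13.2, 14.6 and 14.3 CPM in clf29, against 9.83, 11.9 and 12.1 in WT. The clf29 libraries all lay above the WT libraries, while the trb45 clf29 and WT libraries overlapped. VRN1 rose in clf29 against WT by 0.31 on the log2 scale (edgeR adjusted p = 0.0236, SE 0.0987). That call was lost under library size alone and without WT replicate 1, clf29 replicate 2 or clf29 replicate 3, with edgeR adjusted p of up to 0.152. The clf29 libraries also held the anther marker RNA given above, and its part in this rise was not tested. VRN1 shares 127 of its 2221 exonic 50-base windows with MEF20 (AT3G18970), whose log2 fold change in clf29 against WT was −0.10 (edgeR adjusted p = 0.674, SE 0.168).

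RING1A and RING1B encode the RING1 proteins of the H2A ubiquitin ligase, and they passed in different comparisons, RING1A lower and RING1B higher. RING1A, at chr5:17835810-17839303 on the minus strand, had 2.23, 1.81 and 2.64 CPM in trb45 clf29 and 2.86, 2.14 and 2.88 in trb45. It had 2.66, 2.32 and 2.13 CPM in clf29, against 3.10, 2.89 and 3.04 in WT. Every mutant library was below every WT library. RING1A fell in trb45 clf29 against WT by 0.43 on the log2 scale (log2 fold change −0.43, edgeR adjusted p = 0.0461, SE 0.170). It did not pass in trb45 against WT (−0.19) or clf29 against WT (−0.34). The trb45 clf29 call was lost in 9 of 21 other fits, with edgeR adjusted p of up to 0.177. These were the fits with no filter on low counts, with an offset for GC content and length, and without WT replicate 1, 2 or 3, clf29 replicate 2 or 3, or trb45 clf29 replicate 1 or 2.

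RING1B, at chr1:944572-947682 on the plus strand, was highest in trb45. It had 2.21, 1.37 and 2.23 CPM in trb45 clf29 and 2.77, 2.45 and 2.81 in trb45. It had 1.35, 1.22 and 1.43 CPM in clf29 and 1.91, 1.06 and 1.37 in WT. The trb45 libraries stood above all other libraries, and the trb45 clf29, clf29 and WT libraries overlapped in part. RING1B rose in trb45 against WT, with a log2 fold change of 0.88 (edgeR adjusted p = 0.00835, SE 0.223), and passed in all 21 other fits, which gave 0.71 to 1.12. In the clf29 background its log2 fold change was 0.54 in trb45 clf29 against clf29 (edgeR adjusted p = 0.0881, SE 0.231), and 0.74 without trb45 clf29 replicate 2 (edgeR adjusted p = 0.0241). Against WT it was 0.42 in trb45 clf29 (edgeR adjusted p = 0.143, SE 0.228), and passed without trb45 clf29 replicate 2 (0.61, edgeR adjusted p = 0.0347) or WT replicate 1 (0.65, edgeR adjusted p = 0.0406). The interaction of −0.34 (edgeR adjusted p = 0.608, SE 0.321) does not show that the trb45 effects differ.

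The end of RING1B overlaps the end of TPX2 (AT1G03780), a spindle assembly gene on the opposite strand, and 114 of 2677 exonic 50-base windows of RING1B (4.26%) are shared with it. TPX2 averaged 3.404 ± 0.142 CPM in trb45 clf29, 5.49 ± 0.201 in trb45, 2.997 ± 0.513 in clf29 and 3.80 ± 0.578 in WT. It rose too in trb45 against WT, by 0.53 on the log2 scale (edgeR adjusted p = 0.0108, SE 0.140). Libraries were made with a stranded kit, but the strand setting of the count is not given in the sources used here. Reads of both genes over the overlap may therefore be mixed, and the part of TPX2 in the RING1B value was not tested.

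Within each library, RING1A made up a smaller share of the RING1 pair's counts in both groups with trb45. Its share was 53.8 ± 3.39% in trb45 clf29, 49.3 ± 2.32% in trb45, 63.9 ± 3.53% in clf29 and 68.0 ± 5.72% in WT, from 165 to 326 counts of both genes per library. This share does not depend on library scaling. It differed by −18.6 percentage points in trb45 against WT, −14.2 in trb45 clf29 against WT and −10.1 in trb45 clf29 against clf29, with no overlap between libraries. Each had an exact two-sided permutation p of 0.1, the smallest that 3 against 3 libraries allow. It differed by −4.02 points in clf29 against WT (exact permutation p = 0.4) and 4.45 points in trb45 clf29 against trb45 (exact permutation p = 0.3), where libraries overlapped. RING1A and RING1B share no 50-base exonic window. The RING1B counts may hold reads of TPX2, and their part in these shares was not tested.

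**Figure D3:**
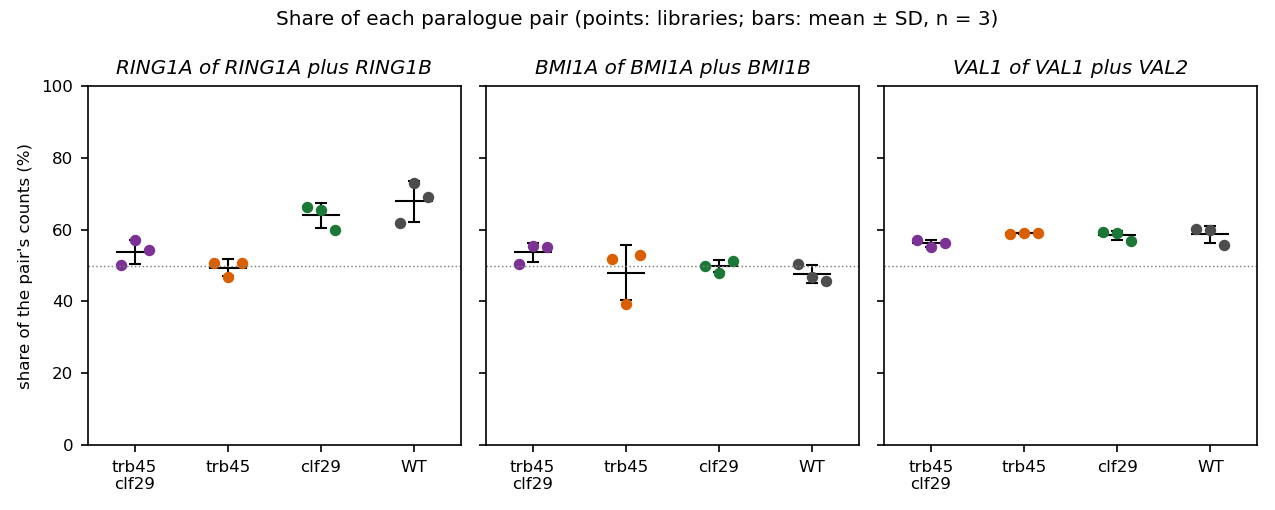
Share of the first gene of each paralogue pair in the counts of both (y axis, percent) by genotype (x axis). Points are libraries, bars are the mean ± SD of 3 libraries, and the dotted line marks equal counts. The RING1A share averages 53.8% in trb45 clf29 and 49.3% in trb45, against 63.9% in clf29 and 68.0% in WT, while the BMI1A and VAL1 shares differ by at most 5.99 percentage points between groups. RING1B counts may hold TPX2 reads, whose part was not tested.

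BMI1A, BMI1B and BMI1C encode the other RING-finger partner of the ubiquitin ligase. BMI1B, at chr1:2078880-2082097 on the minus strand, was lowest in trb45 clf29. It had 4.19, 3.70 and 3.31 CPM in trb45 clf29 and 4.01, 4.91 and 4.73 in trb45. It had 4.89, 5.39 and 4.92 CPM in clf29 and 5.47, 4.78 and 5.65 in WT. The trb45 clf29 libraries lay below all clf29 and WT libraries, and overlapped with those of trb45. BMI1B fell in trb45 clf29 against WT by 0.51 on the log2 scale (log2 fold change −0.51, edgeR adjusted p = 0.00342, SE 0.124). It also fell in trb45 clf29 against clf29, with a log2 fold change of −0.44 (edgeR adjusted p = 0.0131, SE 0.124), a call lost without clf29 replicate 2 or without the unnumbered trb45 clf29 library, with edgeR adjusted p of up to 0.0681. Its value was −0.22 in trb45 against WT (edgeR adjusted p = 0.208, SE 0.122) and −0.06 in clf29 against WT (edgeR adjusted p = 0.71, SE 0.121).

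BMI1A, at chr2:13025911-13030661 on the plus strand, passed in no comparison. It averaged 4.30 ± 0.272 CPM in trb45 clf29, 4.27 ± 1.08 in trb45, 5.02 ± 0.153 in clf29 and 4.84 ± 0.697 in WT. The trb45 libraries were spread from 3.17 to 5.32 CPM. Its share of the BMI1A and BMI1B counts was 53.6 ± 2.73% in trb45 clf29, 48.0 ± 7.63% in trb45, 49.8 ± 1.65% in clf29 and 47.6 ± 2.61% in WT, and libraries overlapped in all 5 comparisons. BMI1C, at chr3:8200636-8203335 on the plus strand, was at 0 counts in all 12 libraries. If each count is a separate read, a count of 0 allows up to 3 counts. This is 0.0519 to 0.0655 CPM depending on the library and covers counting error only. As 79.4% of low counts were even, the limit may be higher.

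VAL1 and VAL2 encode B3-domain repressors that recruit Polycomb proteins to RY elements. VAL1, at chr2:12980428-12985277 on the minus strand, had the smallest adjusted p of any member. It had 19.99, 20.3 and 20.4 CPM in trb45 clf29 and 26.1, 24.0 and 23.9 in trb45. It had 24.3, 24.2 and 23.8 CPM in clf29 and 28.3, 26.8 and 26.97 in WT. The trb45 clf29 libraries lay below all others, the WT libraries above all others, and the trb45 and clf29 libraries overlapped between them. VAL1 fell in trb45 clf29 against WT, with a log2 fold change of −0.44 (edgeR adjusted p = 3.18e-05, SE 0.0602). It fell against clf29 by 0.25 (log2 fold change −0.25, edgeR adjusted p = 0.00453, SE 0.0604) and against trb45 by 0.29 (log2 fold change −0.29, edgeR adjusted p = 0.00273, SE 0.0604).

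In the trb45 parent line VAL1 had a log2 fold change of −0.15 against WT (edgeR adjusted p = 0.0796, SE 0.0596). It passed there with DESeq2 (−0.16, adjusted p = 0.0428), with the filter at a mean of 10 counts, with the offset for GC content and length, and without trb45 replicate 1. It fell in clf29 against WT, with −0.18 (edgeR adjusted p = 0.0284, SE 0.0597), a call lost without WT replicate 1 or any 1 of the clf29 libraries, with edgeR adjusted p of up to 0.0874. With an offset for GC content and length it had −0.07 there (edgeR adjusted p = 0.334). The part of the anther marker RNA of the clf29 libraries in this fall was not tested. The interaction was −0.10 (edgeR adjusted p = 0.54, SE 0.0849). The calls of VAL1 in trb45 clf29 against WT and against clf29 held in all 21 other fits. The call against trb45 was lost with an offset for GC content and length, at a log2 fold change of −0.13 and an edgeR adjusted p of 0.109.

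VAL2, at chr4:15479379-15485354 on the plus strand, had 15.03, 16.5 and 15.8 CPM in trb45 clf29 and 18.3, 16.6 and 16.6 in trb45. It had 16.7, 16.8 and 18.04 CPM in clf29 and 18.7, 17.9 and 21.3 in WT. The trb45 clf29 libraries lay below all other libraries, by a small margin against trb45. VAL2 fell in trb45 clf29 against WT, with a log2 fold change of −0.29 (edgeR adjusted p = 0.00715, SE 0.0796), and passed in no other comparison. With the offset for GC content and length this value was −0.17 and did not pass (edgeR adjusted p = 0.0583). VAL2 shares 55 of its 3759 exonic 50-base windows (1.46%) with AT4G08635, a non-coding RNA gene on the opposite strand, whose part in the VAL2 value was not tested. VAL1 made up 56.2 ± 0.996% of the VAL1 and VAL2 counts in trb45 clf29, 59.0 ± 0.227% in trb45, 58.4 ± 1.30% in clf29 and 58.7 ± 2.43% in WT. The difference of −2.8 points in trb45 clf29 against trb45 had no overlap and an exact permutation p of 0.1, the smallest possible.

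The promoters were searched for the motifs that the VAL and TRB proteins are known to bind. In the 250 bases before to 50 after the gene start, the RY element CATGCA on either strand was found in 9.78% of 26709 protein-coding promoters and in 1 of the 10 members, VAL1. The telobox AAACCCTA on either strand was found in 6.16% of promoters and in none of the 10 members. The window of the VAL1 promoter that holds its RY letters is shown because VAL1 is both the member with the smallest adjusted p and an RY-binding protein. It runs from 250 to 221 bases before the start, at chr2:12985498-12985527, and is written 5′ to 3′ on the minus strand from RefSeq TAIR10.1, with the letters of 4 overlapping or separate matches on either strand in capitals.
VAL1: TGCATGtgtgtgttagtgtCATGCATGCAc
A match describes the letters and does not show binding.

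Across the 12 libraries, the log2 CPM of VAL1 and VAL2 had the highest Pearson correlation of any member pair, 0.80, followed by BMI1B and VAL1 at 0.74. LHP1 and VRN1 had the lowest, −0.61. The libraries share genotype groups, so these values describe how levels moved together and carry no test. Among genes with a mean of at least 10 CPM, those most like VAL1 over the 12 libraries were PUM2 (r = 0.978), AT4G30020 (0.977) and AT1G74800 (0.975). Those most like BMI1B were EMB2762 (0.947), EMB2775 (0.934) and AT2G43235 (0.926).

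The other Polycomb genes were counted beside the members. Of the 8 PRC2 subunit genes, 6 were tested, and 5 fell in trb45 clf29 against WT, among them the mutated gene CLF, beside 48.5% of all genes called and 22.6% called lower. EMF2 fell there by 0.46 on the log2 scale (log2 fold change −0.46, edgeR adjusted p = 0.00101), MSI1 by 0.32 (−0.32, edgeR adjusted p = 0.00455) and FIE by 0.22 (−0.22, edgeR adjusted p = 0.0377). The FIE call was lost with no filter on low counts and without WT replicate 1 or 2 or trb45 clf29 replicate 1 or 2, with edgeR adjusted p of up to 0.123. In trb45 against WT, 1 of the 6 passed, beside 25.7% of all genes: MSI1 fell, a call lost in 5 of 21 other fits (edgeR adjusted p of up to 0.118), those without WT replicate 1 or 2 or trb45 replicate 1 or 3 and that of 6 libraries. In clf29 against WT, CLF and EMF2 fell, 2 of the 6 beside 34.7% of all genes. The EMF2 call was lost in 6 of 21 other fits (edgeR adjusted p of up to 0.0976), those without WT replicate 1 or 3 or any 1 of the clf29 libraries and that with the offset.

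Of 8 genes that counteract Polycomb silencing, 7 were tested, and 6 fell in trb45 clf29 against WT, beside 48.5% of all genes called and 22.6% called lower. In trb45 against WT 2 fell, beside 25.7% of all genes called, and in clf29 against WT 1 rose and 1 fell, beside 34.7%. ATX1, a trithorax methyltransferase, fell by 1.20 on the log2 scale (log2 fold change −1.20, edgeR adjusted p = 0.000277), to 2.53 ± 0.643 CPM in trb45 clf29, against 5.83 ± 0.752 in WT. Its call in trb45 against WT (−0.59, edgeR adjusted p = 0.0431) was lost in 11 of 21 other fits. That in clf29 against WT (−0.66, edgeR adjusted p = 0.0213) was lost in 4 of 21. ULT1, a trithorax group factor, averaged 8.15 ± 0.312 CPM in trb45 clf29, 6.55 ± 0.794 in trb45, 17.3 ± 1.34 in clf29 and 12.2 ± 1.40 in WT. It fell in trb45 against WT (log2 fold change −0.90, edgeR adjusted p = 1.85e-05) and rose in clf29 against WT (0.50, edgeR adjusted p = 0.00172). The H3K27 demethylase genes JMJ13 (−0.43, edgeR adjusted p = 0.00137) and REF6 (−0.28, edgeR adjusted p = 0.00176) fell in trb45 clf29 against WT. With an offset for GC content and length, REF6 had −0.03 and did not pass (edgeR adjusted p = 0.72).

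Of 25 accessory genes, which include VEL proteins, chromatin readers, H2A deubiquitinases and other TRB genes, 23 were tested. In trb45 clf29 against WT, 2 rose and 4 fell, 26.1% beside the 48.5% of all genes. VRN5, a vernalization protein with a PHD finger, rose by 0.28 (edgeR adjusted p = 0.00548), and its relative VEL1 by 0.19 (edgeR adjusted p = 0.0176). BLI, a CLF-interacting protein, fell (−0.28, edgeR adjusted p = 0.00761), as did the deubiquitinase UBP12 (−0.27, edgeR adjusted p = 0.00882). With the offset for GC content and length the UBP12 value was −0.01 (edgeR adjusted p = 0.847), and BLI had −0.15 (edgeR adjusted p = 0.0703). Scaled by library size alone, VEL1 had 0.07 (edgeR adjusted p = 0.427) and VRN5 had 0.16 (edgeR adjusted p = 0.0588), and the VRN5 call was also lost without WT replicate 3 and that of VEL1 without WT replicate 2 or 3 or trb45 clf29 replicate 1.

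**Figure D4:**
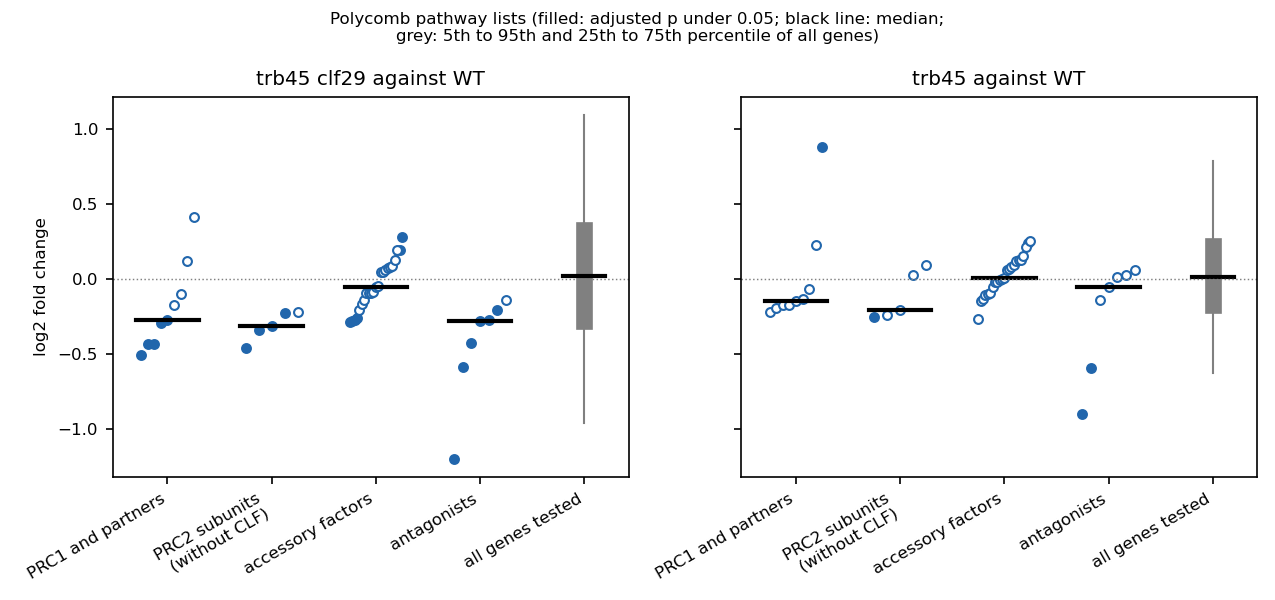
Log2 fold change (y axis) of each tested gene of 4 Polycomb lists in trb45 clf29 against WT (left panel) and trb45 against WT (right panel). Filled points passed an edgeR adjusted p of 0.05, black lines are medians, CLF is left out of the PRC2 points and their median, and the grey bar and line span the 25th to 75th and 5th to 95th percentiles of all genes. The member points lie between −0.51 and 0.42 in trb45 clf29 against WT, with ATX1 at −1.20 as the lowest point drawn.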

How the data were processed

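Per the labels, stranded mRNA libraries were made from polyadenylated leaf RNA. The submitters' processing notes name HISAT2, DESeq2 and the TAIR10 build; versions, counting program and strand setting are not given in the sources used here. The authors deposited whole-number counts per gene, used as deposited. One trb45 clf29 column, without a number, entered as a library of its group. The number of unused value columns was 0. edgeR 4.0.16 (R 4.3.3) kept 19138 genes by filterByExpr (minimum count 10, minimum total 15), scaled libraries with TMM, fitted 4 group means to 12 libraries by quasi-likelihood, and adjusted p-values by Benjamini-Hochberg over all genes tested (threshold 0.05). The SE is the log2 fold change divided by the square root of F. Levels are CPM on TMM-scaled totals. Depth limits the smallest level shown to 3 counts, 0.0519 to 0.0655 CPM, for counting error only and if each count is a separate read. The reads carry no molecular identifiers. Exact permutation tests compared paralogue shares. Alternatives were RLE scaling, library size alone, other filters, DESeq2 1.42.0, a replicate block, fits of 6 libraries, leave-one-out, halved counts and an offset for GC content and exonic length. Symbols, lengths and positions come from RefSeq TAIR10.1, and the table itself holds none. The members and lists were chosen with earlier results of these data known. The text names the 10 members, up to 4 genes with the smallest adjusted p per list, the mutated genes, and the 3 genes most correlated with the 2 members of smallest adjusted p. The neighbours TPX2, MEF20 and AT4G08635 were added for shared sequence.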

Additional observations from a re-analysis of the deposited data

How the results depend on the processing

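All 11 calls of members kept their direction in 231 refits over 21 settings, and 8 of them lost the call at least once. The 34 member values that passed under no setting had the other sign in 26 of 706 refits. Scaled by library size alone, members passing numbered 3 in trb45 clf29 against trb45 and 1 in the interaction. Of 19138 genes, 6722 and 1459 passed there. The median log2 fold change of all genes then was −0.134 in trb45 clf29 against trb45 (0 with TMM) and −0.097 in trb45 clf29 against WT (0.0219 with TMM). The percentage of calls that were higher became 36.7 in clf29 against WT (53.3 with TMM), 37.0 in trb45 clf29 against WT (53.3), 25.2 in trb45 clf29 against trb45 (51.8) and 41.5 in the interaction (55.7). With a mean of at least 10 counts, and with DESeq2, 2 members passed in trb45 against WT. Those fits called 4900 of 18704 and 5208 of 19138 genes. With the offset for GC content and exonic length, chosen after seeing the data, members passing numbered 3 in trb45 against WT, 1 in clf29 against WT, 2 in trb45 clf29 against WT and 0 in trb45 clf29 against trb45. Of 19138 genes, 5194, 6471, 9170 and 5408 passed in these comparisons, in that order. Under that offset EMF1 in trb45 clf29 against WT had 0.18 and VAL2 in trb45 clf29 against trb45 had 0.029, both of opposite sign and not passing. Halving the counts, also chosen after seeing the data, changed no count of members. Whether the replicate numbers pair the libraries was not settled. Correlations of same-numbered libraries ran from −0.255 to 0.322, and those of WT with trb45 were 0.273, 0.322 and 0.0273. Those of differently numbered libraries ran from −0.294 to 0.242. With the replicate block over the 11 numbered libraries, 1 member passed in clf29 against WT, 2 in trb45 clf29 against WT and 1 in trb45 clf29 against clf29. Of 19343 genes, 5673, 7038 and 3897 passed there, in that order. The calls lost with the block were those of VAL1 in clf29 against WT, of LHP1, BMI1B and VAL2 in trb45 clf29 against WT, and of BMI1B in trb45 clf29 against clf29.

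Leaving out 1 library gave 1 to 2 members in trb45 against WT, 0 to 2 in clf29 against WT, 3 to 5 in trb45 clf29 against WT and 1 to 3 in trb45 clf29 against clf29. Of 19331 to 19412 genes, 3506 to 5132, 4343 to 7453, 7608 to 9941 and 4657 to 6757 passed there, in that order. The paralogue share differences with no overlap kept their sign. Those near 0 did not: the BMI1A share in trb45 against WT ran from −2.15 to 4.73 percentage points, the VAL1 share in trb45 against WT from −1.09 to 1.05, and the VAL1 share in clf29 against WT from −1.64 to 0.518.

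List counts and other named genes were refitted after seeing the data. PRC2 genes passing in trb45 against WT numbered 2 with a mean of at least 10 counts and 0 in the fit of 6 libraries, and in clf29 against WT 1 with the offset. Accessory genes in clf29 against WT numbered 2 with no filter and 2 with the replicate block, and in trb45 clf29 against WT 10 by library size alone and 3 with the offset. Antagonist genes in trb45 against WT numbered 1 by library size alone, 1 with the replicate block and 1 in the fit of 6 libraries, and in clf29 against WT 4 by library size alone and 4 with the offset. Leaving out 1 library gave PRC2 counts of 0 to 1 in trb45 against WT, 1 to 2 in clf29 against WT and 3 to 5 in trb45 clf29 against WT, accessory counts of 0 to 2 in trb45 against WT and 1 to 6 in clf29 against WT, antagonist counts of 1 to 2 in trb45 against WT and 1 to 2 in clf29 against WT, and seed programme counts of 1 to 3 in trb45 clf29 against WT. The count of silenced homeotic, flowering-time, meristem and root stem cell genes passing in trb45 against WT was 1 with the replicate block. It was 1 in the fit of 6 libraries and 0 to 2 with 1 library left out. The other 69 named gene calls kept their sign in 1448 refits, and 23 lost the call at least once. The causes of these moves were not tested.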

Other observations

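VAL and BMI1 proteins are known to keep seed genes silent after germination. Of 21 seed maturation and storage genes, 10 had no count in any library and 4 were tested. In trb45 clf29 against WT, 1 rose and 1 fell, beside 25.9% and 22.6% of all genes. CRA1, a seed storage cruciferin, averaged 0.629 ± 0.227 CPM in trb45 clf29, 1.66 ± 0.231 in trb45, 0.203 ± 0.0557 in clf29 and 0.305 ± 0.0419 in WT (SD, n = 3 each). It rose in trb45 against WT, with a log2 fold change of 2.44 (edgeR adjusted p = 2.51e-05, SE 0.301), and in trb45 clf29 against WT, with 1.04 (edgeR adjusted p = 0.0146, SE 0.321). The trb45 clf29 call was lost without WT replicate 1 or 3 or trb45 clf29 replicate 1, with edgeR adjusted p of up to 0.0958. DOG1, a seed dormancy gene, averaged 0.169 ± 0.0802 CPM in trb45 clf29, 0.559 ± 0.147 in trb45, 0.102 ± 0.0792 in clf29 and 1.09 ± 0.0904 in WT. It fell in clf29 against WT, with −3.39 (edgeR adjusted p = 4.04e-05, SE 0.453). The master regulator genes LEC1, FUS3 and ABI3 did not pass the filter on low counts. LEC2 and AGL15 were tested and passed in no comparison. LEC2 averaged 0.392 ± 0.0366 CPM in trb45 clf29 and 0.352 ± 0.177 in WT (log2 fold change 0.15, edgeR adjusted p = 0.773).

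Of 15 homeotic, flowering-time, meristem and root stem cell genes that Polycomb proteins silence in leaves, 9 were tested. In trb45 clf29 against WT 8 rose, beside 25.9% of all genes, and in clf29 against WT 8 rose, beside 18.5%. In WT, 4 of the 9 had at most 3 counts in every library. They passed the filter on low counts only through groups with the clf29 allele. Another of the 9 had at most 0.071 CPM in WT and 0.105 CPM in trb45, and also passed only through those groups. These counts of rises were therefore set in part by the filter and carry no test. In trb45 against WT 1 rose and 1 fell, beside 14.5% and 11.2%. The one that rose there was FLC, with 1.12 (edgeR adjusted p = 0.0141), a call lost in 3 of 21 other fits. AG, a floral organ identity gene, averaged 65.6 ± 2.97 CPM in trb45 clf29, 0.853 ± 0.0216 in trb45, 46.9 ± 1.93 in clf29 and 0.738 ± 0.139 in WT. In trb45 clf29 against clf29, 2 of the 9 rose, AG and FLC, beside 17.2% of all genes. SEP3 and AP3 fell, beside 14.2%, and the AP3 call was lost in 5 of 21 other fits. Of the 9 log2 fold changes there, 7 lay below 0. SEP3 averaged 26.2 ± 0.65 CPM in trb45 clf29 and 51.65 ± 2.81 in clf29 (log2 fold change −0.98, edgeR adjusted p = 9.34e-07). The anther markers summed to 3.52 to 14.9 CPM in clf29 and to at most 0.270 in trb45 clf29. The part of this anther RNA in the SEP3 and AP3 falls was not tested.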
